A study of Homo sapiens with 4 samples.

Results

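The enzymes of the pentose phosphate pathway were followed in the mRNA of the renal carcinoma sublines 786-O-Ctrl and 786-O-VHL. The genes were taken from a list of 6 members, PGLS and PGD of the oxidative branch and RPIA, RPE, TKT and TALDO1 of the non-oxidative branch, out of 12912 genes in the count table. By symbol, 5 of the 6 were found. PGLS has no entry under its symbol, but its Ensembl identifier is in the table under the clone-based name AC010618.1, and it was therefore read by identifier. The table holds 51 genes whose clone-based name goes with an identifier that has another symbol in the annotation.

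786-O is an established line of clear cell renal cell carcinoma (ccRCC) without functional VHL, the substrate recognition subunit of the ubiquitin ligase that marks hypoxia-inducible factors for degradation. 786-O-Ctrl is the VHL-null line, and 786-O-VHL carries a retroviral pBabe-puro vector that expresses HA-tagged wild-type VHL. Whether 786-O-Ctrl carried an empty vector is not given in the sources used here. Both sublines also carry a retroviral triple reporter of GFP, luciferase and thymidine kinase, and both were grown in RPMI1640 with fetal bovine serum and antibiotics. RNA was sequenced from 2 libraries of each subline, and each group is therefore 1 subline. Nothing says that the libraries of a subline came from separate cultures, so the tests measure the spread between these libraries, which may be technical. In the table both 786-O-Ctrl columns have 1 replicate number in common, so these libraries are told apart by depth, as deeper and shallower.

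The pentose phosphate pathway branches off glycolysis at glucose phosphate. Its oxidative branch yields NADPH, the reductant of lipid synthesis and of the glutathione and thioredoxin systems, together with a pentose phosphate. Its reversible non-oxidative branch exchanges pentose phosphates, which feed nucleotide synthesis, with the fructose phosphate and glyceraldehyde phosphate of glycolysis. ccRCC cells are known for high glucose uptake and for their stores of lipid and glycogen.

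Total counts were 22141263 in the deeper and 15714166 in the shallower 786-O-Ctrl library, against 2807779 in replicate 1 and 16114120 in replicate 2 of 786-O-VHL. Depth thus differed by up to 7.89 times, and 786-O-VHL replicate 1 was the shallowest. Levels are in CPM, the usual unit of counts scaled to library size, with edgeR's TMM factors applied. A positive log2 fold change means a higher level in 786-O-VHL. A count of 0 allows up to 3 counts, or 0.142 and 0.199 CPM in the 786-O-Ctrl libraries and 1.02 and 0.178 CPM in 786-O-VHL replicates 1 and 2. These limits, and the Poisson intervals of counts given here, cover counting error only. VHL mRNA, the check of the labels, was 42.9 and 43.9 CPM in 786-O-Ctrl and 178 and 163 CPM in 786-O-VHL, with a log2 fold change of 1.96 (SE 0.0706, edgeR FDR = 2.86e-19). VHL was thus higher in the 786-O-VHL libraries, as labelled, and the counts do not separate the vector's transcript from the endogenous one.

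Most of the pathway's enzymes had less mRNA in 786-O-VHL. Of the 6 genes, all of which passed the filter on low counts, 5 passed an FDR of 0.05 in edgeR's quasi-likelihood test, against 64.5% of the 12335 genes tested. PGD, RPIA, TKT and TALDO1 were lower, 4 of 6 against 31.9% of all tested genes, and PGLS was higher, 1 of 6 against 32.6%. PGD was the only member past the FDR and more than 2-fold lower, 1 of 6 against 7.52%. RPE did not pass. The libraries of both groups did not overlap for 5 of the 6, against 80% of all tested genes. The median log2 fold change of the 6 was -0.47, against 0.02 over all tested genes. A change in either direction was thus common among all genes, and these shares describe the members without setting them apart.

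Two-sided exact permutation tests cannot give a p below 0.333 with 2 libraries per group, while edgeR estimates the spread with information from all genes (biological coefficient of variation 4.31%). With library totals alone in place of TMM factors, log2 fold changes rose by a median of 0.13 and the share of lower genes among those past the FDR went from 49.5% to 37.9%. Under that scaling PGD, RPIA, TKT and TALDO1 were still lower and PGLS higher at an FDR under 0.05, while RPE went from -0.03 to 0.11 and did not pass.

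**Figure D1:**
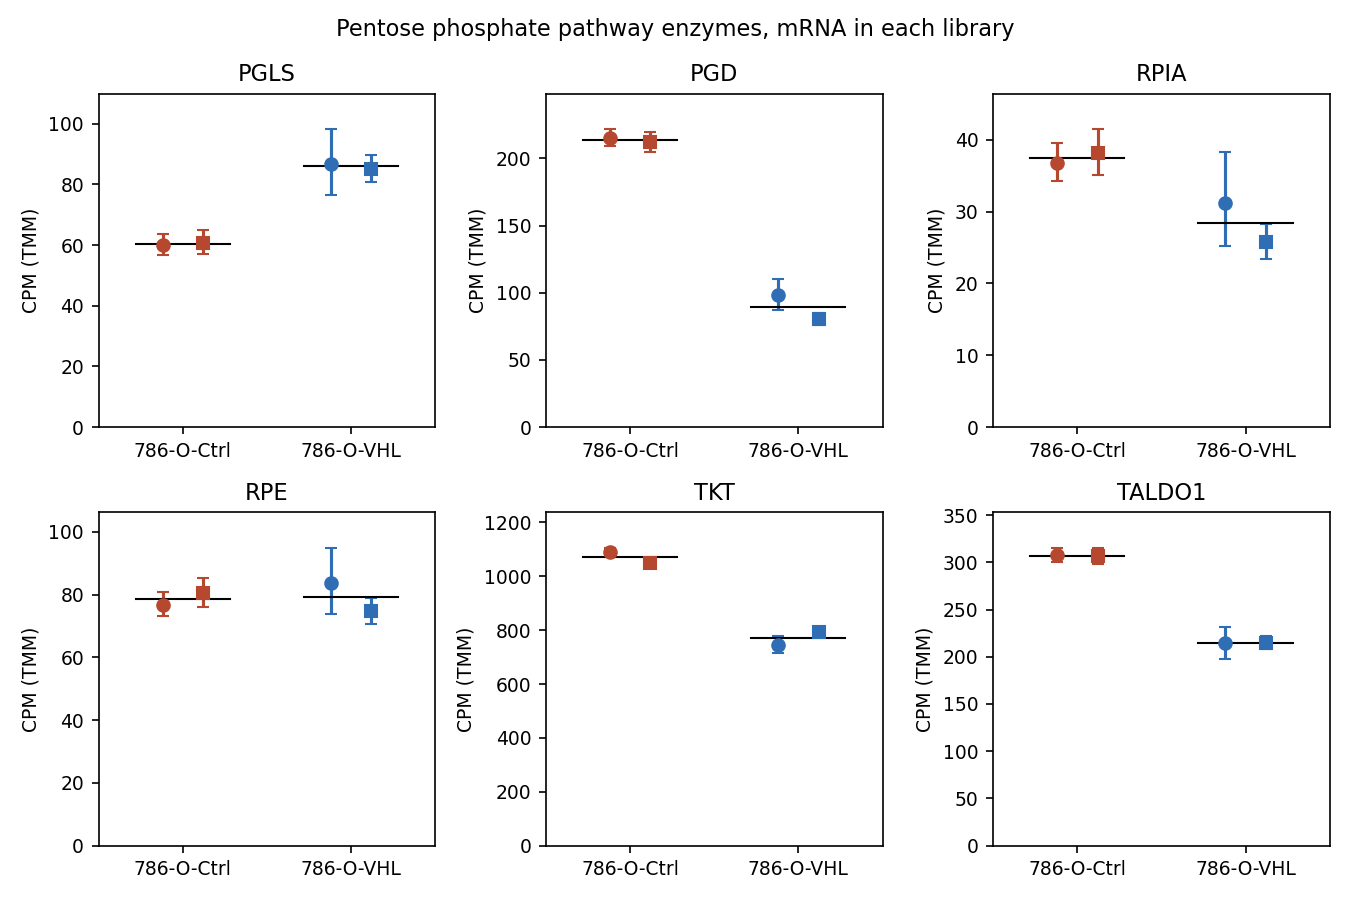
mRNA of the 6 enzymes in CPM (TMM-scaled, linear axes from 0) in each library; circles are the deeper 786-O-Ctrl library and 786-O-VHL replicate 1, squares the shallower 786-O-Ctrl library and 786-O-VHL replicate 2, error bars are 95% exact Poisson intervals of the counts and horizontal lines are group means. PGD, RPIA, TKT and TALDO1 lie lower in both 786-O-VHL libraries, PGLS lies higher, and the RPE libraries overlap.

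PGD encodes phosphogluconate dehydrogenase, the enzyme of the second NADPH-forming step of the oxidative branch. The gene (ENSG00000142657.21) lies on chromosome 1 of GRCh37, plus strand, at 10458649 to 10480568, and no other annotated gene crosses it. PGD mRNA was 215 CPM in the deeper and 212 CPM in the shallower 786-O-Ctrl library, against 98.4 CPM in replicate 1 and 80.2 CPM in replicate 2 of 786-O-VHL. Both 786-O-Ctrl libraries were high and nearly equal, and both 786-O-VHL libraries were far below them. The 786-O-VHL libraries differed from each other by more than counting error, with 95% Poisson intervals of 87.4 to 110 CPM over 290 counts in replicate 1 and of 76.0 to 84.6 CPM over 1351 counts in replicate 2. Means were 214 ± 2.10 CPM for 786-O-Ctrl and 89.3 ± 12.8 CPM for 786-O-VHL (SD, n = 2 each). The log2 fold change was -1.32 (SE 0.0755, 95% interval -1.48 to -1.17, edgeR FDR = 7.23e-15), which is a 2.50-fold lower level. This was the largest change among the 6 enzymes, and 4.39% of all tested genes had a lower log2 fold change.

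PGLS encodes phosphogluconolactonase, which opens the lactone ring in the step before PGD. The gene (ENSG00000130313.7) lies on chromosome 19 of GRCh37, plus strand, at 17622445 to 17632097. The annotation has 2 genes of the opposite strand that overlap it, and neither has an entry in the count table used here. PGLS mRNA was 60.1 CPM in the deeper and 60.8 CPM in the shallower 786-O-Ctrl library, against 86.8 CPM in replicate 1 and 85.2 CPM in replicate 2 of 786-O-VHL. Both 786-O-VHL libraries were above both 786-O-Ctrl libraries, and the libraries within each group were close together. Means were 60.5 ± 0.489 CPM for 786-O-Ctrl and 86.0 ± 1.15 CPM for 786-O-VHL (SD, n = 2 each), with a log2 fold change of 0.50 (SE 0.0709, 95% interval 0.36 to 0.65, edgeR FDR = 5.07e-07). PGLS was the only 1 of the 6 that rose past the FDR, and it did so beside the fall of PGD, the next enzyme of the same branch.

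The promoters of these genes are shown because these neighbouring enzymes moved in opposite directions. They are the 250 bases before the start of each gene in the RefSeq table of GRCh38.p14, written from 5′ to 3′ on the strand of the gene, chr1:10398814-10399063 on the plus strand for PGD and chr19:17511399-17511648 on the plus strand for PGLS. All 6 enzymes were matched in that table by symbol. Capitals mark matches on either strand to 4 motifs: ACGTG and GCGTG, the core letters of the hypoxia response element; CACGTG, the E-box, which contains ACGTG; and TGACNNNGC, the core of the antioxidant response element.
PGD: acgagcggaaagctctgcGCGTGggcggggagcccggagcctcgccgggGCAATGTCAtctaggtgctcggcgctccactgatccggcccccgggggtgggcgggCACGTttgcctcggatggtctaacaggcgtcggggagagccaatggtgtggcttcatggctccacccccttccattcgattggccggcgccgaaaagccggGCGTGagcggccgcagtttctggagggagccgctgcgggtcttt
PGLS: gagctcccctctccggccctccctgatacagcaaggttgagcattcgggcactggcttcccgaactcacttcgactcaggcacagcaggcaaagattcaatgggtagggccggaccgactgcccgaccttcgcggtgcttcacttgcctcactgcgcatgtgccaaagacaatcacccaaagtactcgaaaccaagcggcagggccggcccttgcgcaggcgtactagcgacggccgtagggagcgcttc

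The PGD promoter held matches to 3 of the 4 motifs. GCGTG stood on the strand of the gene from 232 to 228 and from 44 to 40 bases before the start, ACGTG on the opposite strand from 145 to 141 bases, and TGACNNNGC on the opposite strand from 201 to 193 bases before the start. The PGLS promoter held none of the 4 in this window. Over the same 250 bases, ACGTG was found in 18.5% of the 35116 promoters of the table, GCGTG in 32.2%, CACGTG in 6.34% and TGACNNNGC in 10.9%, so that each of these matches is common. A match describes letters and not a bound site, and binding was not measured here.

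TKT encodes transketolase, which moves carbon units between sugar phosphates in the non-oxidative branch. The gene (ENSG00000163931.16) lies on chromosome 3 of GRCh37, minus strand, at 53258728 to 53290068, and no other annotated gene crosses it. TKT mRNA was 1092 CPM in the deeper and 1049 CPM in the shallower 786-O-Ctrl library, against 745 CPM in replicate 1 and 795 CPM in replicate 2 of 786-O-VHL. All 4 libraries held it at a high level, and both 786-O-VHL libraries lay below both 786-O-Ctrl libraries. The log2 fold change was -0.47 (SE 0.0605, 95% interval -0.60 to -0.35, edgeR FDR = 1.05e-07), from 1070 ± 30.2 to 770 ± 35.4 CPM (SD, n = 2 each).

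TALDO1 encodes transaldolase, the other carbon-transferring enzyme of that branch. The gene (ENSG00000177156.11) lies on chromosome 11 of GRCh37, plus strand, at 747415 to 765012, and no other annotated gene crosses it. TALDO1 mRNA was 308 CPM in the deeper and 306 CPM in the shallower 786-O-Ctrl library, against 214 CPM in replicate 1 and 215 CPM in replicate 2 of 786-O-VHL. The libraries within a group were almost equal, and the groups were clearly apart. The log2 fold change was -0.52 (SE 0.0626, 95% interval -0.65 to -0.39, edgeR FDR = 3.51e-08), from 307 ± 1.00 to 214 ± 0.439 CPM (SD, n = 2 each). The 95% intervals of the changes of TKT and TALDO1 overlapped over most of their length.

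The promoters of TKT, chr3:53256023-53256272 on the minus strand, and TALDO1, chr11:747214-747463 on the plus strand, are shown because these enzymes fell by nearly the same amount. Both are from the same RefSeq table of GRCh38.p14, and neither held any of the 4 motifs in its 250 bases, so that no letter is in capitals. G and C made up 70.4% of the bases for TKT and 78.4% for TALDO1. The other members stood at 68.4% for PGD, 64.4% for RPE, 61.6% for PGLS and 60.0% for RPIA. The share over all promoters is not given here.
TKT: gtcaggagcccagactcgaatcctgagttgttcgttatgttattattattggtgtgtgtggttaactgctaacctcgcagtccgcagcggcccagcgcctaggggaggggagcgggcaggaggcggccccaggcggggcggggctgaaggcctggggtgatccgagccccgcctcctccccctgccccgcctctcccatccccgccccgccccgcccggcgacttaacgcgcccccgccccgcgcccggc
TALDO1: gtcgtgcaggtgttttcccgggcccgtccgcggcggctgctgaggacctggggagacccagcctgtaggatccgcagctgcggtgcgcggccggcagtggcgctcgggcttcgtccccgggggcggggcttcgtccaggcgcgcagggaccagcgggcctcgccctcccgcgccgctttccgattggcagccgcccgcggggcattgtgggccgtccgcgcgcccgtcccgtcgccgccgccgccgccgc

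RPIA encodes ribose phosphate isomerase, which makes the ribose phosphate used for nucleotides. The gene (ENSG00000153574.9) lies on chromosome 2 of GRCh37, plus strand, at 88991191 to 89050446, and no other annotated gene crosses it. RPIA mRNA was 36.8 CPM in the deeper and 38.2 CPM in the shallower 786-O-Ctrl library, against 31.2 CPM in replicate 1 and 25.7 CPM in replicate 2 of 786-O-VHL. Both 786-O-VHL libraries were lower, but the 92 counts of replicate 1 give a 95% Poisson interval of 25.2 to 38.3 CPM that reaches both 786-O-Ctrl values. The log2 fold change was -0.47 (SE 0.106, 95% interval -0.69 to -0.26, edgeR FDR = 0.000296), from 37.5 ± 0.998 to 28.5 ± 3.89 CPM (SD, n = 2 each). Without 786-O-VHL replicate 2 it was -0.27 and no longer passed (edgeR FDR = 0.168), and with all libraries thinned to the shallowest it was -0.39 (edgeR FDR = 0.0587). Over the 10 alternatives the FDR ran from 3.1e-05 to 0.168. The RPIA promoter held GCGTG once, on the opposite strand from 57 to 53 bases before the start.

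RPE encodes ribulose phosphate epimerase, which makes the xylulose phosphate that transketolase uses. The gene (ENSG00000197713.15) lies on chromosome 2 of GRCh37, plus strand, at 210867289 to 210886984, and KANSL1L, which has counts of its own, covers part of it on the opposite strand. Since the use of strand in counting is not given in the sources used here, reads of these genes may have been mixed. RPE mRNA was 76.8 CPM in the deeper and 80.5 CPM in the shallower 786-O-Ctrl library, against 83.8 CPM in replicate 1 and 74.8 CPM in replicate 2 of 786-O-VHL. The groups overlapped, with a 786-O-VHL library at each end. The log2 fold change of -0.03 (SE 0.0735, 95% interval -0.18 to 0.13, edgeR FDR = 0.778) did not pass, and its sign is not settled. The mean CPM was slightly higher in 786-O-VHL, at 79.3 ± 6.38 against 78.7 ± 2.63 CPM (SD, n = 2 each), and the fitted value was 0.015 without the shallower 786-O-Ctrl library and 0.088 without 786-O-VHL replicate 2. The interval leaves room for a fall of up to 0.18 on the log2 scale, which is smaller than the fall measured for the 4 enzymes that were lower. The RPE promoter held TGACNNNGC once, on the strand of the gene from 151 to 143 bases before the start.

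**Figure D2:**
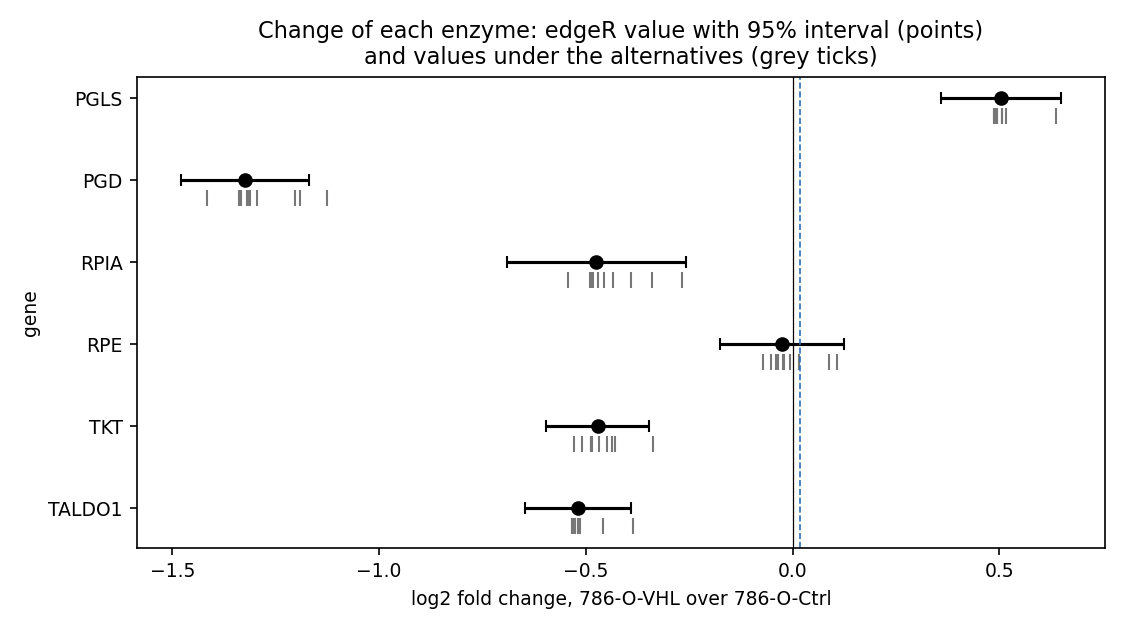
Log2 fold change of each enzyme, 786-O-VHL over 786-O-Ctrl; points with bars are the edgeR values with 95% intervals, grey ticks are the values under the 10 alternatives of the processing, the solid line is 0 and the dashed line is the median of all tested genes (0.02). PGD stands at -1.32, TALDO1, RPIA and TKT lie between -0.52 and -0.47, RPE is at -0.03 with ticks on both sides of 0, and PGLS is at 0.50.

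Processed copies and paralogs can take reads from a gene. The annotation names PGDP1 after PGD, RPIAP1 after RPIA, RPEL1 and 6 RPEP genes after RPE, and TKTL1 and TKTL2 after TKT. None of these has an entry in the count table used here, so how reads were shared between them and the members was not analysed here.

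Levels of different genes were compared per kilobase of the canonical transcript. In 786-O-Ctrl the order was TKT with 357 ± 10.1 CPM per kilobase, TALDO1 with 256 ± 0.835, PGD with 94.3 ± 0.926, PGLS with 60.0 ± 0.485, RPE with 24.7 ± 0.826 and RPIA with 20.7 ± 0.551 CPM per kilobase (SD, n = 2 each). In 786-O-VHL it was TKT with 257 ± 11.8 CPM per kilobase, TALDO1 with 179 ± 0.366, PGLS with 85.3 ± 1.14, PGD with 39.4 ± 5.66, RPE with 24.9 ± 2.01 and RPIA with 15.7 ± 2.14 CPM per kilobase (SD, n = 2 each). PGD and PGLS exchanged places between the sublines, and the other 4 enzymes held theirs. The libraries of neighbours in either order did not overlap. With lengths taken as the union of all annotated exons, TKT and TALDO1 again came first, PGD stood above PGLS in 786-O-Ctrl with 64.1 ± 0.630 and 21.3 ± 0.172 CPM per kilobase, and PGLS above PGD in 786-O-VHL with 30.3 ± 0.405 and 26.8 ± 3.85 CPM per kilobase (SD, n = 2 each). On that scale PGLS and PGD were close in 786-O-VHL replicate 1, at 30.6 and 29.5 CPM per kilobase from 256 and 290 counts. Their order in that library is therefore less certain. PGLS and RPE are also close on that scale in 786-O-Ctrl, where RPE was at 22.3 ± 0.746 CPM per kilobase, and their order depends on the length used.

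Summed over the 6 enzymes, mRNA was 1789 CPM in the deeper and 1747 CPM in the shallower 786-O-Ctrl library, against 1259 CPM in replicate 1 and 1276 CPM in replicate 2 of 786-O-VHL. Both 786-O-VHL libraries thus had the lower sums. TKT was the largest part of each, with 1092 and 1049 CPM in the 786-O-Ctrl libraries and 745 and 795 CPM in 786-O-VHL replicates 1 and 2. Its share is smaller once levels are divided by length. TKT made up 44.4% and 43.4% of the sum of levels per kilobase of canonical transcript in the 786-O-Ctrl libraries, and 41.4% and 44.1% in 786-O-VHL replicates 1 and 2, so that its share overlapped between groups.

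Ratios of counts within a library do not depend on the scaling between libraries. The pairs described here were chosen after the values had been seen. PGLS had 0.279 and 0.286 counts for each count of PGD in the 786-O-Ctrl libraries (the deeper first), and 0.883 and 1.06 in 786-O-VHL replicates 1 and 2, with exact binomial (Clopper-Pearson) 95% intervals of 0.743 to 1.05 and 0.985 to 1.15 for the latter. The ratio went from 0.283 ± 0.00509 to 0.972 ± 0.127 (SD, n = 2 each), a 3.44-fold higher value. The oxidative pair thus shifted from a clear excess of PGD counts to nearly equal counts.

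PGD had 0.197 and 0.202 counts for each count of TKT in the 786-O-Ctrl libraries (the deeper first), and 0.132 and 0.101 in 786-O-VHL replicates 1 and 2. PGD was lower against TKT in both 786-O-VHL libraries, so that it fell by more than transketolase. TALDO1 had 0.282 and 0.292 counts for each count of TKT in the 786-O-Ctrl libraries, and 0.287 and 0.270 in 786-O-VHL replicates 1 and 2. The TALDO1 values overlapped between groups, with means of 0.287 ± 0.00714 and 0.279 ± 0.0122 (SD, n = 2 each). RPIA had 0.479 and 0.474 counts for each count of RPE in the 786-O-Ctrl libraries, and 0.372 and 0.344 in 786-O-VHL replicates 1 and 2. The isomerase was thus lower against the epimerase in both 786-O-VHL libraries, although the interval of replicate 1, 0.290 to 0.475, reaches the value of the shallower 786-O-Ctrl library.

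**Figure D3:**
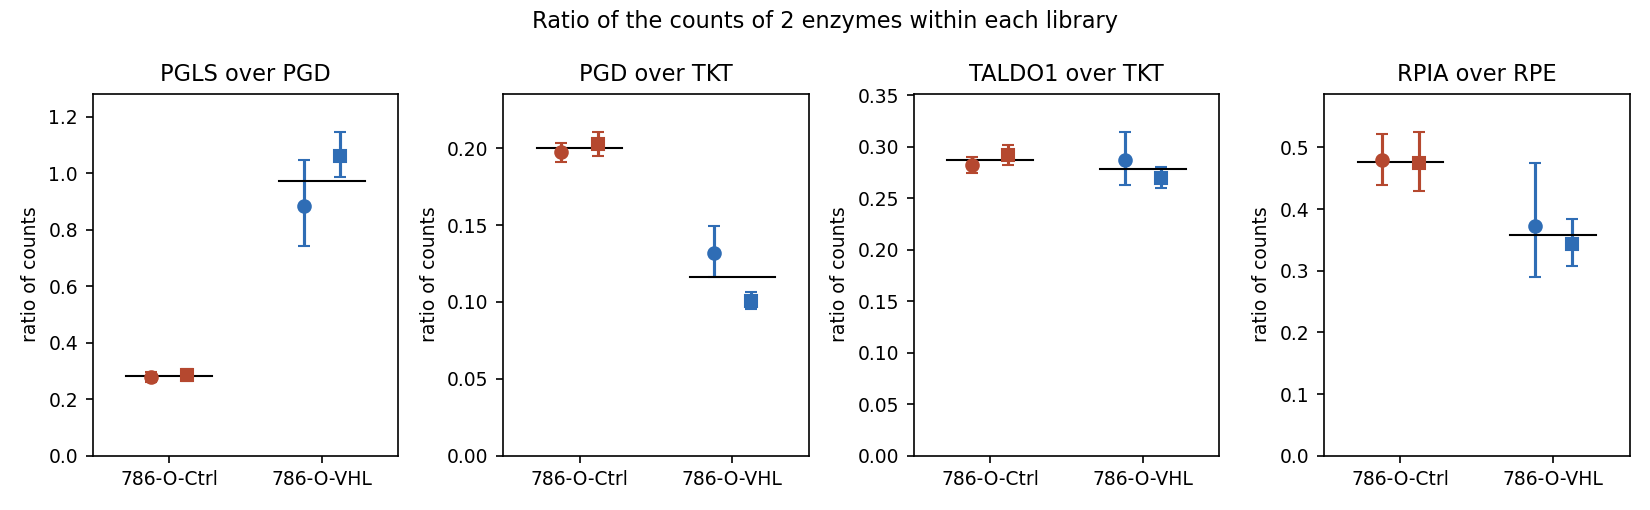
Ratio of the counts of paired enzymes within each library (linear axes from 0); circles are the deeper 786-O-Ctrl library and 786-O-VHL replicate 1, squares the shallower 786-O-Ctrl library and 786-O-VHL replicate 2, error bars are exact binomial 95% intervals and horizontal lines are group means. PGLS over PGD is higher in 786-O-VHL, PGD over TKT and RPIA over RPE are lower, and TALDO1 over TKT overlaps between the groups.

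The genes with the most similar patterns were sought among 9234 other tested genes with a mean of at least 10 CPM, as the smallest Euclidean distance between log2 CPM profiles centred on their means over the 4 libraries. For PGD these were APOL1 and ZNF367, at distances of 0.0503 and 0.0580 log2 units. For PGLS they were ARHGAP26 and CUX1 (0.0167 and 0.0169), for RPIA CPS1 and SYTL2 (0.0228 and 0.0287) and for RPE CABIN1 and ZFAT (0.0147 and 0.0231). For TKT they were RAN and CD151 (0.0148 and 0.0224) and for TALDO1 DPY19L1 and FASTKD1 (0.0182 and 0.0184). PGD had the most distant neighbours of the 6. Over 4 libraries such nearness describes a shared pattern of values only.

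Of 15 genes at the entry and exit of the pathway and its paralogs, TKTL1, TKTL2 and RPEL1 have no entry in the count table used here, and of the 12 tested 7 were lower (31.9% over all tested genes), 4 were higher (32.6%) and 1 did not pass, and their median log2 fold change was -0.30. The kinases that turn ribose phosphate into phosphoribosyl pyrophosphate (PRPP) were lower: PRPS1 went from 116 ± 7.52 to 64.8 ± 2.91 CPM and PRPS2 from 55.8 ± 2.88 to 31.9 ± 0.449 CPM (SD, n = 2 each), each with a log2 fold change of -0.82 (edgeR FDR = 1.21e-10 and 6.12e-09). TIGAR, a phosphatase known for turning glucose carbon toward the pathway, was 4.08 and 4.72 CPM in the 786-O-Ctrl libraries and 13.6 and 13.0 CPM in 786-O-VHL, with a log2 fold change of 1.59 (SE 0.192, edgeR FDR = 3.45e-08). TIGAR was thus the member of this list that rose most. IDNK, a gluconate kinase, rose from 3.46 ± 0.478 to 7.77 ± 1.00 CPM (SD, n = 2 each), with a log2 fold change of 1.08. H6PD, whose enzyme carries out the first oxidative steps inside the endoplasmic reticulum, was 107 ± 0.294 CPM in 786-O-Ctrl and 131 ± 12.6 CPM in 786-O-VHL (SD, n = 2 each), with a log2 fold change of 0.33 (edgeR FDR = 0.000115).

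Some calls in this list changed with the processing. Without 786-O-VHL replicate 2, H6PD was at 0.19 (edgeR FDR = 0.0739, range over 10 alternatives 6.46e-07 to 0.0739). PRPSAP2, a PRPP synthetase-associated protein, went from 0.41 to 0.25 (edgeR FDR = 0.244, range 5.25e-05 to 0.244). With all libraries kept, PRPSAP2 also missed the threshold in DESeq2 (0.37, FDR = 0.0609) and after thinning to the shallowest library (0.35, edgeR FDR = 0.117). SHPK, a sedoheptulose kinase, had 64 and 40 counts in the 786-O-Ctrl libraries (the deeper first) and 5 and 21 in 786-O-VHL replicates 1 and 2. Its log2 fold change of -1.11 (edgeR FDR = 0.0105) was -0.99 without the deeper 786-O-Ctrl library (edgeR FDR = 0.131) and -0.76 without 786-O-VHL replicate 2 (edgeR FDR = 0.362). In DESeq2, with all libraries, it was -1.06 (FDR = 0.145). Over 8 alternatives its FDR ran from 0.00894 to 0.362, and TRPV1 covers part of SHPK on the same strand.

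The glycolysis genes that share sugar phosphates with the pathway were nearly all lower. Of 10, 9 were lower and 1 was higher, with a median log2 fold change of -0.90, against 31.9% lower and 32.6% higher over all tested genes. TPI1, the triose phosphate isomerase, went from 1164 ± 19.9 to 411 ± 34.7 CPM and GAPDH from 3068 ± 49.97 to 1277 ± 13.9 CPM (SD, n = 2 each), log2 fold changes of -1.49 and -1.27 (edgeR FDR = 1.84e-17 and 7.23e-17). Reads of GAPDH and TPI1 can also fall on their processed pseudogenes, so their levels are less certain. SPSB2 and SENP1, which have counts of their own, overlap TPI1 and PFKM on the opposite strand. ALDOC, an aldolase, had 43 and 39 counts in the 786-O-Ctrl libraries and 0 and 15 in 786-O-VHL replicates 1 and 2, with a log2 fold change of -1.61 (SE 0.472, edgeR FDR = 0.00398). Without 786-O-VHL replicate 2 the remaining library held no ALDOC count, and its level there can only be placed under 1.02 CPM. DESeq2 gave ALDOC a log2 fold change of -1.89 and an FDR of 0.053, the highest of 8 alternatives, which ran from 0.00311 (edgeR). RSKR covers part of ALDOC on the same strand. ALDOA, also among the 9 lower genes, is overlapped on the same strand by ENSG00000285043, which has counts of its own. Its level of 35.8 ± 2.13 CPM in 786-O-Ctrl and 16.9 ± 2.265 CPM in 786-O-VHL (SD, n = 2 each) is therefore less certain. PFKM, the muscle-type phosphofructokinase, was the exception, with 81.3 ± 2.89 and 92.5 ± 2.07 CPM (SD, n = 2 each) and a log2 fold change of 0.18 (edgeR FDR = 0.0267). The PFKM call was lost in 5 of 10 alternatives. With all libraries kept, these were DESeq2 (0.17, FDR = 0.21) and thinning to the shallowest library (0.08, edgeR FDR = 0.557). It was also lost without the deeper 786-O-Ctrl library, without the shallower one and without 786-O-VHL replicate 2, with log2 fold changes of 0.14, 0.21 and 0.21 for edgeR FDR values of 0.321, 0.11 and 0.0922 (range over 10 alternatives 0.00028 to 0.557). All 6 pathway enzymes but PGD changed by less than the median of this list.

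The genes of a list of other NADPH sources passed in shares near those of all genes. The list also holds NADK, NADK2 and MTHFD1L, whose enzymes do not form NADPH, and ME2, the NAD-dependent malic enzyme. These did not pass (edgeR FDR = 0.561, 0.791, 0.269 and 0.7955), so the shares are not those of NADPH-forming enzymes alone. Of 14 genes, ALDH1L1 has no entry in the count table used here, and of the 13 tested 4 were lower (31.9% over all tested genes), 3 were higher (32.6%) and 6 did not pass, with a median log2 fold change of -0.03. ME1, the cytosolic malic enzyme, went from 86.4 ± 3.58 to 58.8 ± 4.68 CPM and IDH2, the mitochondrial isocitrate dehydrogenase, from 165 ± 2.37 to 87.2 ± 2.86 CPM (SD, n = 2 each), log2 fold changes of -0.60 and -0.91 (edgeR FDR = 9.99e-08 and 1.93e-12). MTHFD1, the cytosolic folate enzyme, had a log2 fold change of -0.38 (edgeR FDR = 1.15e-05). Of the mitochondrial folate enzymes tested, MTHFD2 and ALDH1L2 were higher and MTHFD1L did not pass. MTHFD2 went from 265 ± 19.3 to 369 ± 8.03 CPM and ALDH1L2 from 22.4 ± 2.74 to 66.2 ± 0.0872 CPM (SD, n = 2 each), log2 fold changes of 0.48 and 1.57 (edgeR FDR = 2.05e-07 and 3.01e-14). NNT, the transhydrogenase of the inner mitochondrial membrane, was also higher, at 0.43 (edgeR FDR = 2.19e-06). IDH1, the cytosolic isocitrate dehydrogenase, was 126 ± 0.218 and 118 ± 2.09 CPM (SD, n = 2 each), and its log2 fold change of -0.10 did not pass (edgeR FDR = 0.18) and turned to 0.03 under scaling by library totals. Genes with counts of their own cover part of ALDH1L2 and MTHFD1 on the opposite strand.

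Of the genes of nucleotide synthesis from PRPP, a list that also holds CAD and DHODH of the pyrimidine steps before PRPP enters, 9 of 16 were lower (31.9% over all tested genes), 0 were higher (32.6%) and 7 did not pass, with a median log2 fold change of -0.27. DESeq2 and the other alternatives gave between 7 and 11 past the FDR. HPRT1, which salvages purine bases with PRPP, went from 68.5 ± 0.923 to 26.4 ± 2.76 CPM, IMPDH1 from 254 ± 1.57 to 122 ± 7.30 CPM and PAICS from 461 ± 6.13 to 231 ± 12.9 CPM (SD, n = 2 each). Their log2 fold changes were -1.31, -1.04 and -0.98 (edgeR FDR = 2.88e-13, 9.71e-14 and 1.34e-13). PPAT, which commits PRPP to purine synthesis, was 63.2 ± 1.45 and 55.9 ± 0.149 CPM (SD, n = 2 each), with a log2 fold change of -0.18 (edgeR FDR = 0.0391). The PPAT call was kept in 4 of 10 alternatives. It was lost in DESeq2 (-0.195, FDR = 0.199), after thinning to the shallowest library (-0.17, edgeR FDR = 0.267), without the deeper 786-O-Ctrl library, without the shallower one and without 786-O-VHL replicate 2 (log2 fold changes of -0.16, -0.21 and -0.18, edgeR FDR = 0.285, 0.136 and 0.214), and with library totals alone the value was -0.05 (edgeR FDR = 0.594, range over 10 alternatives 0.0266 to 0.594).

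Of a list of antioxidant genes, some of which use NADPH, 4 of 13 were lower and 5 higher, near the 31.9% and 32.6% of all tested genes, and 4 did not pass, with a median log2 fold change of 0.02. TXN, or thioredoxin, went from 350 ± 6.57 to 177 ± 7.498 CPM and GCLM, the modifier subunit of glutamate-cysteine ligase, from 116 ± 2.24 to 64.3 ± 3.63 CPM (SD, n = 2 each), log2 fold changes of -0.999 and -0.826 (edgeR FDR = 1.19e-13 and 5.05e-11). SLC7A11, the cystine transporter, went from 102 ± 16.4 to 161 ± 0.913 CPM and TXNRD1, the thioredoxin reductase, from 674 ± 7.78 to 900 ± 68.5 CPM (SD, n = 2 each), log2 fold changes of 0.67 and 0.42 (edgeR FDR = 2.49e-08 and 1.06e-06). Thioredoxin and its cytosolic reductase thus moved in opposite directions. AKR1C1 was 1.33 and 1.60 CPM in the 786-O-Ctrl libraries and 5.43 and 4.75 CPM in 786-O-VHL, with a log2 fold change of 1.76 (edgeR FDR = 1.83e-05), and is uncertain because close paralogs can share its reads. SRXN1, or sulfiredoxin, had a log2 fold change of -0.48 (edgeR FDR = 0.022) and lost its call in 5 of 10 alternatives. These were DESeq2 (-0.51, FDR = 0.142), library totals alone (-0.34, edgeR FDR = 0.0948), thinning to the shallowest library (-0.49, edgeR FDR = 0.194), the fit without the deeper 786-O-Ctrl library (-0.38, edgeR FDR = 0.238) and that without 786-O-VHL replicate 2 (-0.65, edgeR FDR = 0.0948; range over 10 alternatives 0.0158 to 0.238).

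**Figure D4:**
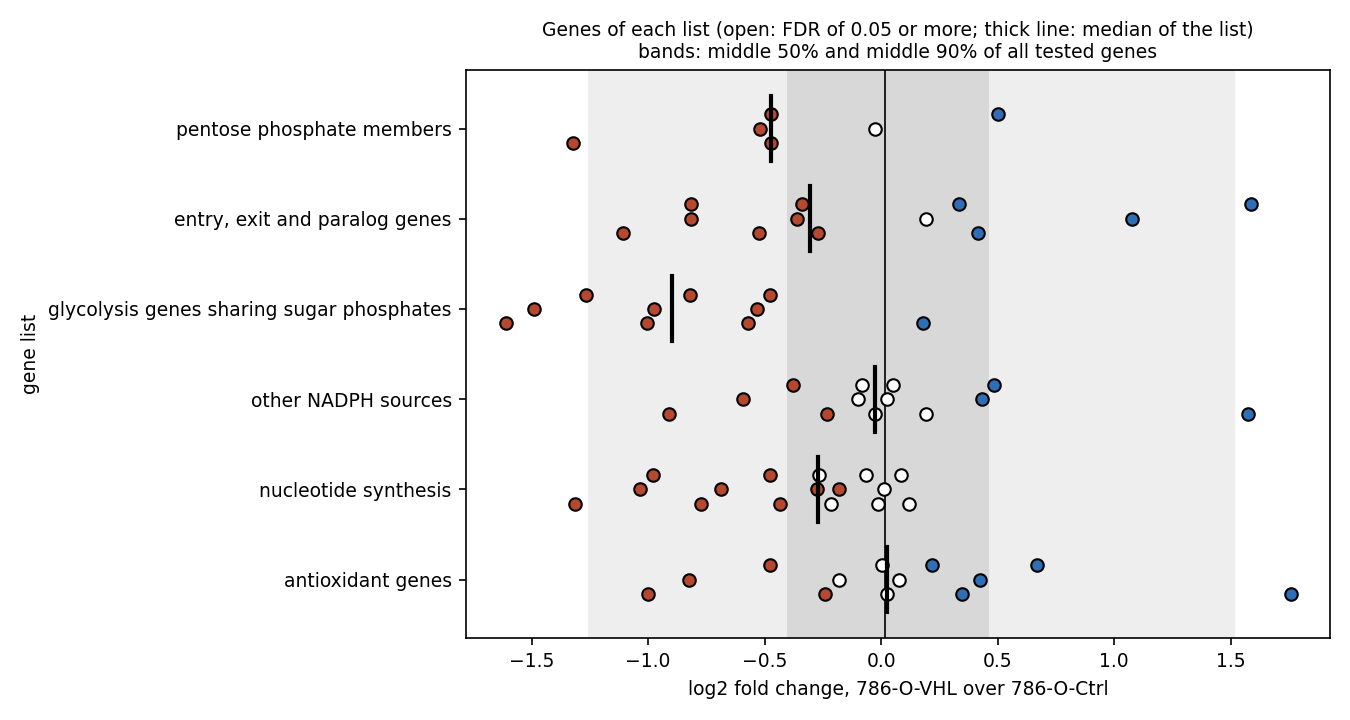
Log2 fold change (786-O-VHL over 786-O-Ctrl) of the tested genes of each list; red points are lower and blue points higher at an edgeR FDR under 0.05, open points did not pass, thick lines are list medians, the thin line is the median of all tested genes and the bands hold the middle 50% and 90% of them. The medians run from -0.90 for the glycolysis genes to 0.02 for the antioxidant genes, with the 6 pathway enzymes at -0.47.

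Markers were read in every library as a check of the cell type. Of 11 genes that mark renal epithelium or this carcinoma line, 10 have an entry, and their summed level was 4019 and 4009 CPM in the 786-O-Ctrl libraries and 2819 and 2842 CPM in 786-O-VHL replicates 1 and 2. PAX8, the renal lineage factor, was 277 and 272 CPM in the 786-O-Ctrl libraries (the deeper first) and 166 and 137 CPM in 786-O-VHL replicates 1 and 2. VIM was the most abundant of the list in 786-O-Ctrl, at 1684 ± 21.7 CPM (SD, n = 2), and CUBN and LHX1 were under 5 CPM in each library. Of the 10 markers, 5 were lower (31.9% over all tested genes) and 1 was higher (32.6%) at an edgeR FDR under 0.05, and 4 did not pass. Their summed level was lower in 786-O-VHL, as was that of the pathway enzymes. VIM, which weighs most in the 786-O-Ctrl sums, went from 1684 ± 21.7 to 730 ± 29.9 CPM (SD, n = 2 each), so the sum does not show a fall of each marker. CA12, VIM and PAX8 fell most, with log2 fold changes of -2.91, -1.21 and -0.90, and EPAS1 rose, at 1.37. The part of this in the results on the pathway was not tested. Of 12 markers of leukocytes, endothelium, fibroblasts, red cells and liver, 10 have no entry in the count table used here, and PECAM1 and LUM summed to 1.23, 1.66, 2.71 and 2.32 CPM in the same order of libraries. LUM, the most abundant of them, had 17, 21, 7 and 33 counts.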

How the data were processed

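RNA of both sublines was made into TruSeq libraries and sequenced on an Illumina NovaSeq instrument. Reads were aligned to hg19 by the authors, whose deposited table gives raw counts per gene. The submitters' processing notes list CASAVA and STAR without versions. The sources used here do not say how reads were counted over genes, with which annotation or whether by strand. Whole-number counts of 12912 genes were read, and genes were handled by Ensembl identifier because 75 symbols repeat. Coordinates, overlaps and lengths came from a GENCODE annotation of GRCh37, which holds 12749 of the identifiers.

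The test was run in edgeR 4.0.16 (R 4.3.3). Low counts were filtered with filterByExpr (minimum count 10), which removed 577 genes and left 12335. Counts were scaled by TMM (factors 0.951, 0.958, 1.05 and 1.045, with the 786-O-Ctrl libraries first, the deeper before the shallower, and then 786-O-VHL replicates 1 and 2). The quasi-likelihood F test had the group as the only term and was followed by Benjamini-Hochberg adjustment over all tested genes (FDR). Standard errors are those implied by the F statistic. The script was tested on simulated data. Replicates differed by more than sampling noise (chi-square per degree of freedom 2.26 for 786-O-Ctrl, 2.82 for 786-O-VHL). A library was taken as 1 replicate. Alternatives were DESeq2 1.42.0, RLE factors, library totals, no filter, at least 10 counts in every library, thinning to the shallowest library, and each library left out in turn.

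The members and lists were chosen with earlier results of these data known. All 6 enzymes, VHL, PRPS1, PRPS2, H6PD, TIGAR, ME1, IDH1, MTHFD1, MTHFD2, PPAT and the absent paralogs TKTL1 and RPEL1 were to be named whatever their values, and of each other list at most 3 genes per direction with the largest log2 fold change past an FDR of 0.05 whose libraries did not overlap. PAX8, CUBN, LHX1, PECAM1 and LUM, among the markers, were chosen after their values were seen. So were ALDOA, ME2, MTHFD1L, NADK, NADK2, CAD, DHODH and the pairs in the ratios. Of the planned renal markers, 1 is not reported here. Promoters are from RefSeq (GRCh38.p14). Intervals and ratios were computed with scipy 1.17.1.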

Additional observations from a re-analysis of the deposited data

How the results depend on the processing

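PGLS, PGD, TKT and TALDO1 kept their direction and an FDR under 0.05 under all 10 alternatives, with log2 fold changes of 0.49 to 0.64, -1.42 to -1.13, -0.53 to -0.34 and -0.53 to -0.39. RPIA stayed lower but did not pass with libraries thinned to the shallowest (-0.39) or without 786-O-VHL replicate 2, and ranged from -0.54 to -0.27 as each library was left out. RPE turned to 0.108 with library totals alone and ranged from -0.072 to 0.088 as each library was left out, never passing the FDR. IDH1 turned to 0.033 with library totals alone. The causes of these changes were not tested, except that thinning and leaving out a library use fewer counts. Of the 5 pathway enzymes past the FDR, between 4 and 5 passed under each alternative that kept all libraries. Under these, counts of the other metabolic lists and of all genes stayed within 1.5 times their values, from 5750 to 8174 for all genes. The marker lists were not counted under the alternatives. Over 32 other named genes, 291 of 316 values kept their direction and side of the threshold. Where a library was left out, the lone library of its group was assumed to vary like the others.

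No paired analysis was possible because both 786-O-Ctrl columns carry the same replicate number. 786-O-VHL replicate 1, with 2807779 counts, gives little precision for weakly expressed genes. SHPK and ALDOC were not tested under 2 of the alternatives, which need more counts. Protein, enzyme activity and metabolites were not analysed here.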
